A study of Mus musculus with 4 samples.

Results

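The phagocyte NADPH oxidase was described here through the 5 genes Cybb, Cyba, Ncf1, Ncf4 and Rac2, which were chosen by symbol from the platform annotation and are 5 of 12393 genes that it names. They are read by 6 probe sets of 22690, with 2 probe sets for Ncf1 and 1 for each other gene. The study asked how the transcriptional repressor Gfi1 bears on the fate of monocytes and granulocytes in mice, and measured 4 sorted bone marrow populations on 1 array each. The animals were untreated C57BL/6 mice of 8 weeks, from lines with at least 10 generations of backcrossing, in specific pathogen free housing. All of them carried GFP knocked into the Gfi1 locus on 1 or both alleles, so no population came from a mouse without the knock-in. Gfi1-deficient monocytes were CD11b+, Gr1-low cells of a GFP:Gfi1 KI/KI mouse, for which the labels name no GFP gate. Granulocytes were CD11b+, Gr1-high cells of a GFP:Gfi1 KI/WT mouse. GFP-high monocytes and GFP-low monocytes were CD11b+, Gr1-low cells of GFP:Gfi1 KI/WT mice, separated by the brightness of the reporter.

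The oxidase is the enzyme of the respiratory burst. Its catalytic core is a flavocytochrome in the membrane, formed by Cybb and Cyba, which passes electrons from NADPH in the cytosol to oxygen in the phagosome and makes superoxide. In a resting cell the regulatory proteins, Ncf1 and Ncf4 among them, stay in the cytosol, and on activation they move to the membrane together with a Rac GTPase. Neutrophils and monocytes both use it to kill microbes, and its loss causes chronic granulomatous disease in humans.

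Values are log2 expression values as deposited, and a difference is the log2 value of the first population named minus that of the second. A log2 value of 5.18, the 40th percentile of all values, served as a floor, and all 6 probe sets lay far above it on every array. With 1 array in each population there is no spread between animals, no test could be made, and no statement below has a replicate check. Error could be judged only from genes that have several probe sets, by how far their differences scatter around each other, given as an SD in log2 units over 2584 genes. This SD leaves out error that the probe sets of a gene share on an array, such as that of the animal, the sort or the labelling. A difference beyond the SD can therefore still be such error. The SD was smallest for Gfi1-deficient minus GFP-low monocytes, at 0.16, and largest for Gfi1-deficient monocytes minus granulocytes, at 0.38. A gene was counted as apart at a log2 difference of 1 or more, which is 2-fold. In sorted bulk cells, fewer cells of a type and less RNA per cell cannot be told apart.

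Gfi1 itself read 5.18 in Gfi1-deficient monocytes, 7.31 in granulocytes, 10.31 in GFP-high monocytes and 3.74 in GFP-low monocytes. The value in Gfi1-deficient monocytes lay just under the floor and that in GFP-low monocytes well under it. Where this probe set lies relative to the replaced part of the gene is not known here, so it does not check the knock-out label. Transcripts tied to sex set the Gfi1-deficient array apart. Xist, which silences an X chromosome, had a log2 value of 5.80 in Gfi1-deficient monocytes, 9.56 in granulocytes, 10.93 in GFP-high monocytes and 10.42 in GFP-low monocytes. Eif2s3y, a gene of the Y chromosome, had 8.31 in Gfi1-deficient monocytes and stayed under the floor elsewhere. Monocyte markers, of which 11 of 12 were named on the array and all 11 lay above the floor on each array, had a mean log2 level of 12.15 in Gfi1-deficient monocytes, 8.93 in granulocytes, 8.11 in GFP-high monocytes and 12.20 in GFP-low monocytes. The GFP-high array therefore went against its monocyte label: the receptor gene Csf1r read 8.86 there, against 12.90 in GFP-low monocytes. The primary granule genes, 6 of 7 of them named, averaged 12.36 in GFP-high and 8.84 in GFP-low monocytes. Not all of them went that way. Of the 6, 5 passed the 2-fold rule upward, but Ctsc passed it downward, with 9.24 in GFP-high and 12.46 in GFP-low monocytes.

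The flavocytochrome genes varied little among the populations. Cybb encodes gp91phox, the catalytic chain that binds heme, FAD and NADPH, and lies on the X chromosome. It read 11.35 in Gfi1-deficient monocytes, 11.87 in granulocytes, 12.03 in GFP-high monocytes and 11.62 in GFP-low monocytes. From the highest to the lowest array this is a range of 0.68, or 1.61-fold. Neighbours in the order GFP-high monocytes, granulocytes and GFP-low monocytes lay closer than the SD between probe sets, while Gfi1-deficient monocytes lay 0.27 below GFP-low monocytes, against an SD of 0.16.

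Cyba encodes p22phox, the partner chain that stabilises gp91phox and docks Ncf1. It read 12.52 in Gfi1-deficient monocytes, 13.04 in granulocytes, 12.95 in GFP-high monocytes and 12.48 in GFP-low monocytes. The arrays fell into a higher pair, granulocytes and GFP-high monocytes, which differed by 0.09, and a lower pair, Gfi1-deficient and GFP-low monocytes, which differed by 0.04, both under the SD between probe sets. The range was 0.56, or 1.47-fold. Of 7215 genes above the floor on all 4 arrays, 44.8% had a range of 1 or more, and 63.3% had a range at least as large as that of Cybb and 72.9% one at least as large as that of Cyba.

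Of the 5 genes the cytosolic organiser had the largest range. Ncf1 encodes p47phox, which is phosphorylated on activation and carries the cytosolic complex to p22phox. Its brighter probe set read 10.38 in Gfi1-deficient monocytes, 12.60 in granulocytes, 12.27 in GFP-high monocytes and 10.41 in GFP-low monocytes. The other probe set, designed to the same transcript record, read 9.26 in Gfi1-deficient monocytes, 11.82 in granulocytes, 11.33 in GFP-high monocytes and 9.51 in GFP-low monocytes. Both put granulocytes highest, GFP-high monocytes next and the remaining arrays far below. The range was 2.23 by the brighter and 2.56 by the other probe set, or 4.68-fold and 5.90-fold. Of the 7215 genes, 11.7% had a range at least as large as that of the brighter probe set.

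Ncf4 encodes p40phox, which binds a phosphoinositide of the phagosome membrane. It read 11.42 in Gfi1-deficient monocytes, 12.22 in granulocytes, 12.32 in GFP-high monocytes and 11.08 in GFP-low monocytes. Granulocytes and GFP-high monocytes differed by 0.10, less than the SD between probe sets of 0.32. Gfi1-deficient monocytes lay below both, and above GFP-low monocytes by 0.34, against an SD of 0.16. The range was 1.23, or 2.35-fold, which 35.1% of the genes matched or passed.

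Rac2 encodes the Rac GTPase of blood cells, which in its GTP form switches on the assembled enzyme. It read 11.27 in Gfi1-deficient monocytes, 12.86 in granulocytes, 12.42 in GFP-high monocytes and 11.43 in GFP-low monocytes. The range was 1.60, or 3.02-fold, which 23.7% of the genes matched or passed. Granulocytes stood 0.45 above GFP-high monocytes, over the SD of 0.32, while Gfi1-deficient and GFP-low monocytes differed by 0.16, which equals the SD to 2 decimals.

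**Figure D1:**
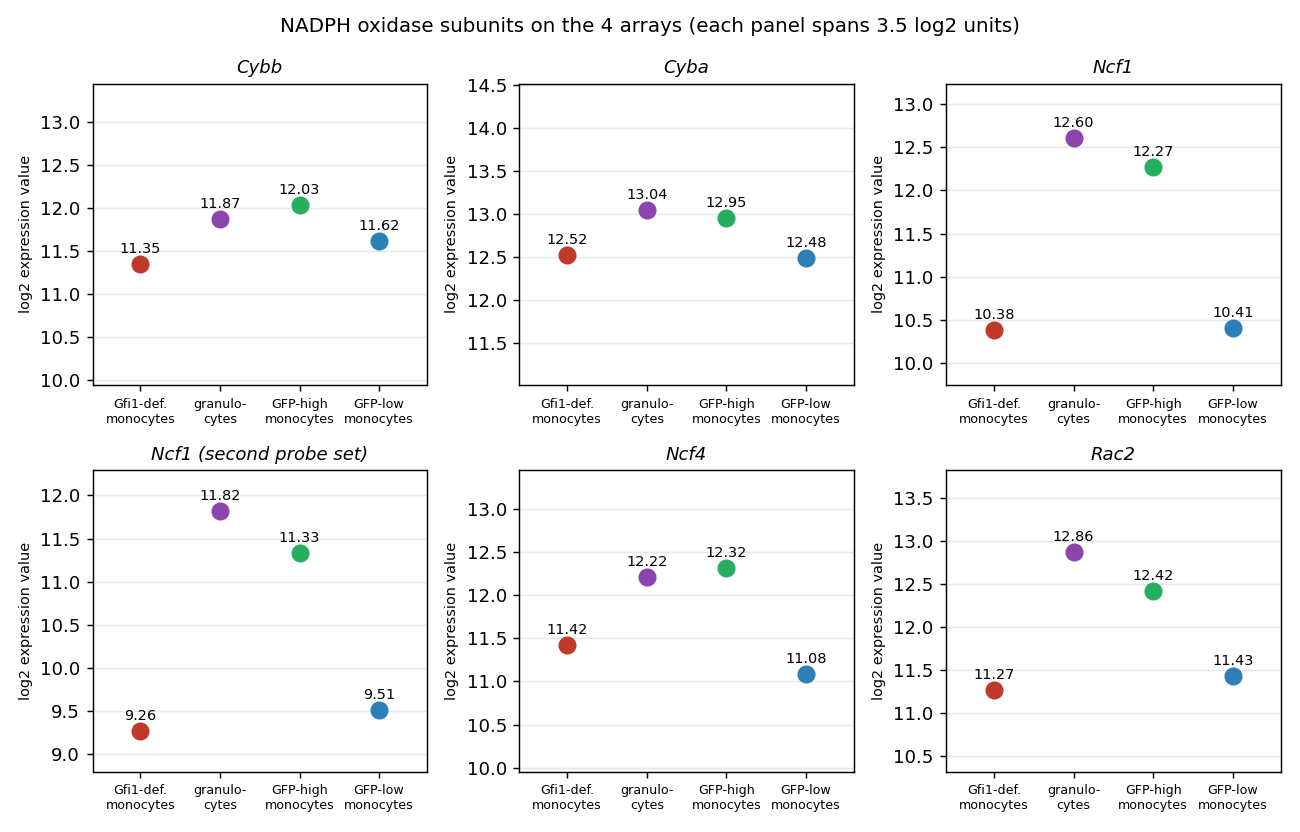
Log2 expression value (vertical axis) of each probe set of the 5 genes on the 4 arrays (horizontal axis); each point is 1 array, with no error bar because no population was measured again. Ncf1 and Rac2 are low in Gfi1-deficient monocytes (10.38 and 11.27), high in granulocytes (12.60 and 12.86) and GFP-high monocytes (12.27 and 12.42) and low in GFP-low monocytes (10.41 and 11.43), while Cybb and Cyba stay within 0.68 and 0.56.

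Upstream sequence is shown for Ncf1 and Cybb, the genes with a large and a small range, to set beside their levels. Each line holds the 250 bases before the RefSeq start of the gene in GRCm38.p6, for Ncf1 chr5:134229626-134229875 and for Cybb chrX:9469325-9469574, both on the minus strand and written 5′ to 3′ along the gene. Capitals mark matches, on either strand, to the motifs searched.
Ncf1: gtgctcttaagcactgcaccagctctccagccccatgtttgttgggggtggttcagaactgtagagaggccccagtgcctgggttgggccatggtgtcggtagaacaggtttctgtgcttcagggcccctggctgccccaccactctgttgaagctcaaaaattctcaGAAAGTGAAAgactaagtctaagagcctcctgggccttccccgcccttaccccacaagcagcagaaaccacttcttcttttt
Cybb: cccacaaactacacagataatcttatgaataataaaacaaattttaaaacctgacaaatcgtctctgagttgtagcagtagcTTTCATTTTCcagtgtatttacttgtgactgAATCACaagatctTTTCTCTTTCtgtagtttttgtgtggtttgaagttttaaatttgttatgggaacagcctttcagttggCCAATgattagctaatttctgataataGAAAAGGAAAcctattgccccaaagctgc

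The motifs were a pair of GAAA copies set 2 bases apart, the core of an interferon response element, CCAAT, the box of that name, AATCAC, a core of Gfi1 sites, and GAGGAA, a core of sites for the myeloid factor PU.1. The GAAA pair was found 1 time before Ncf1, starting at base -82 from the gene's start, and 3 times before Cybb, starting at -168, -124 and -29, with no overlap with another motif. It stands in 2.98% of 32851 upstream windows of this length. Before Cybb there was also 1 CCAAT, at -56, and 1 AATCAC, at -137, motifs present in 33.8% and 9.14% of windows. GAGGAA, present in 23.3% of windows, was not in either window, and the window of Cyba held none of the 4 motifs. A match of letters is a description and not a site of binding.

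In granulocytes against GFP-low monocytes all 5 subunits were higher, as were 50.0% of 8503 measured genes, and Ncf1, Rac2 and Ncf4 passed 2-fold. These are 3 of 5 subunits, where 10.0% of all measured genes passed 2-fold on the higher side, and 0 of 5 were at least 2-fold lower, against 18.2% of all genes. The median over the 5 genes was 1.13, against 0.00 over all genes. Ncf1 was 4.59-fold, Rac2 2.70-fold and Ncf4 2.19-fold higher. Cyba was 1.47-fold higher, and Cybb 1.19-fold higher with a log2 difference of 0.26, inside the SD between probe sets of 0.34.

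GFP-high monocytes, set against GFP-low monocytes of the same genotype and Gr1 gate, had all 5 genes higher, where 52.3% of 8232 genes were, and each by more than the SD between probe sets of 0.27. Ncf1 was 3.65-fold and Ncf4 2.35-fold higher, so that 2 of 5 genes were at least 2-fold higher, where 9.03% of all genes were so, and 0 of 5 were at least 2-fold lower, against 9.61%. Rac2 stood just under the rule at 1.98-fold. Its log2 difference of 0.99 became 1.04 when each array was centred on its median, and was as low as 0.87 under another setting. Cyba was 1.38-fold and Cybb 1.34-fold higher. The median was 0.99, against 0.03 over all genes. This comparison and that of granulocytes share the GFP-low array.

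Granulocytes and GFP-high monocytes differed less in these genes. In granulocytes against GFP-high monocytes 0 of 5 genes were 2-fold apart, where 25.3% of 8457 genes were. Rac2 was 1.36-fold and Ncf1 1.26-fold higher in granulocytes, each by more than the SD of 0.32, and the other Ncf1 probe set gave 1.41-fold. Cyba, at 0.09, lay inside that SD. So did Cybb, at -0.16, and Ncf4, at -0.10, and these signs turned to 0.09 and 0.15 when arrays were centred on housekeeping genes, a scaling that moved the median of all genes to 0.24; quantile normalization gave 0.01 for Ncf4.

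Gfi1-deficient monocytes were set against GFP-low monocytes to ask whether cells without Gfi1 differ in the oxidase from Gr1-low cells in which the locus is weakly active. None of the 5 genes was 2-fold apart, and 1.91% of 8010 measured genes were. Ncf4 was 1.26-fold higher and Cybb 1.20-fold lower, each beyond the SD between probe sets of 0.16. Cyba was 1.03-fold higher and Rac2 1.12-fold lower. Ncf1 differed by -0.03 with its brighter and -0.24 with its other probe set, and by 0.01 with the brighter when arrays were centred on their medians. The median over the 5 genes was -0.03, against 0.03 over all genes. Genotype, sort gate and the transcripts tied to sex differ together here and cannot be told apart. The 210 X-linked genes measured, with Cybb among them and Xist left out, had a median difference of 0.00, and 1 of them was 2-fold apart.

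Gfi1-deficient monocytes were lower than GFP-high monocytes in all 5 genes, where 51.6% of 8195 genes were lower, each by more than the SD between probe sets of 0.26. Ncf1 was 3.72-fold and Rac2 2.22-fold lower, which makes 2 of 5 genes at least 2-fold lower, where 7.81% of all genes were, and 0 of 5 at least 2-fold higher, against 9.53%. Ncf4 was 1.86-fold, Cybb 1.61-fold and Cyba 1.35-fold lower, and the median was -0.90, against -0.02 over all genes. Against granulocytes, Gfi1-deficient monocytes were also lower in all 5 genes, where 49.7% of 8520 genes were lower, beyond an SD of 0.38. Ncf1 was 4.68-fold and Rac2 3.02-fold lower, again 2 of 5 genes, where 11.2% of all genes were at least 2-fold lower, and 0 of 5 were at least 2-fold higher, against 20.3%. Ncf4 was 1.74-fold, Cybb 1.44-fold and Cyba 1.43-fold lower, and the median was -0.80, against 0.01 over all genes.

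**Figure D2:**
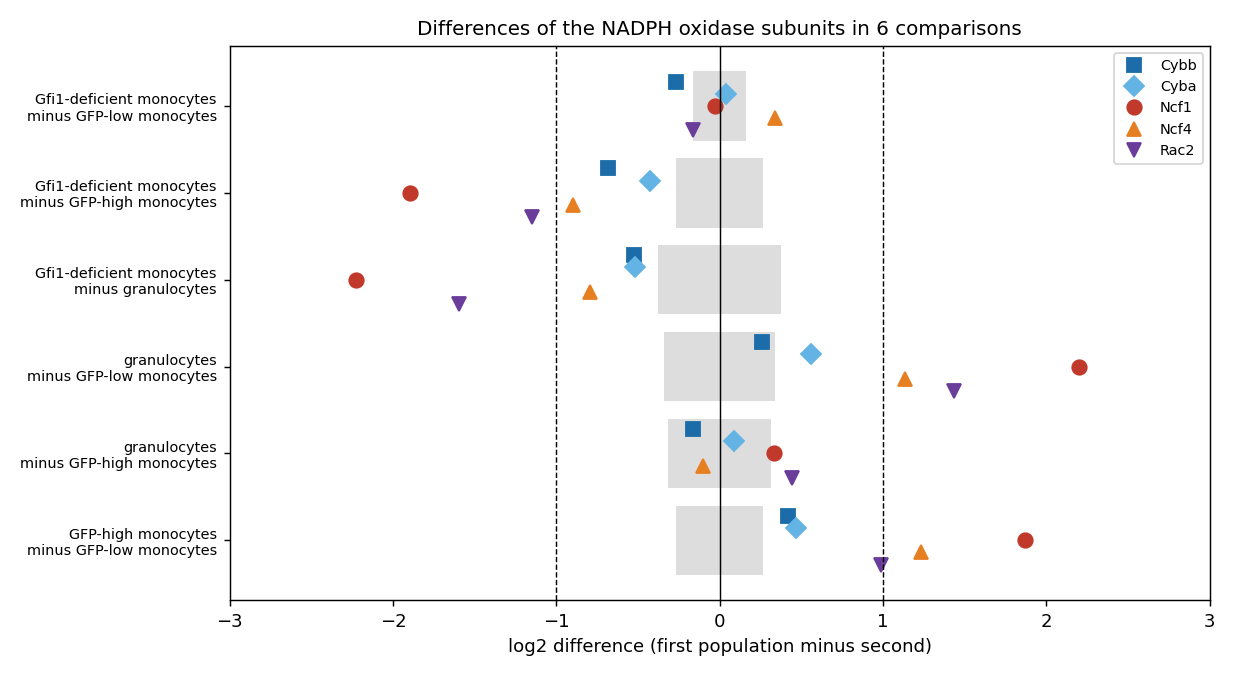
Log2 difference (horizontal axis, first population minus second) of the 5 genes in the 6 comparisons (vertical axis); grey bars span plus and minus the probe-set SD of that comparison, and dashed lines mark the 2-fold rule. Ncf1 lies farthest out in each comparison between a granulocytic or GFP-high and a GFP-low or Gfi1-deficient array (1.87 and 2.20 against GFP-low monocytes), and all 5 genes lie within 0.34 of 0 in Gfi1-deficient minus GFP-low monocytes.

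The components thus did not differ evenly. In granulocytes minus GFP-low monocytes the mean log2 difference was 1.59 over the cytosolic Ncf1 and Ncf4 and the GTPase Rac2, and 0.41 over the membrane chains Cybb and Cyba. In GFP-high minus GFP-low monocytes it was 1.36 and 0.44. In Gfi1-deficient minus GFP-low monocytes it was 0.05 and -0.11. These means compare differences, not levels, between genes, and Ncf1 has the greatest part in them.

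**Figure D3:**
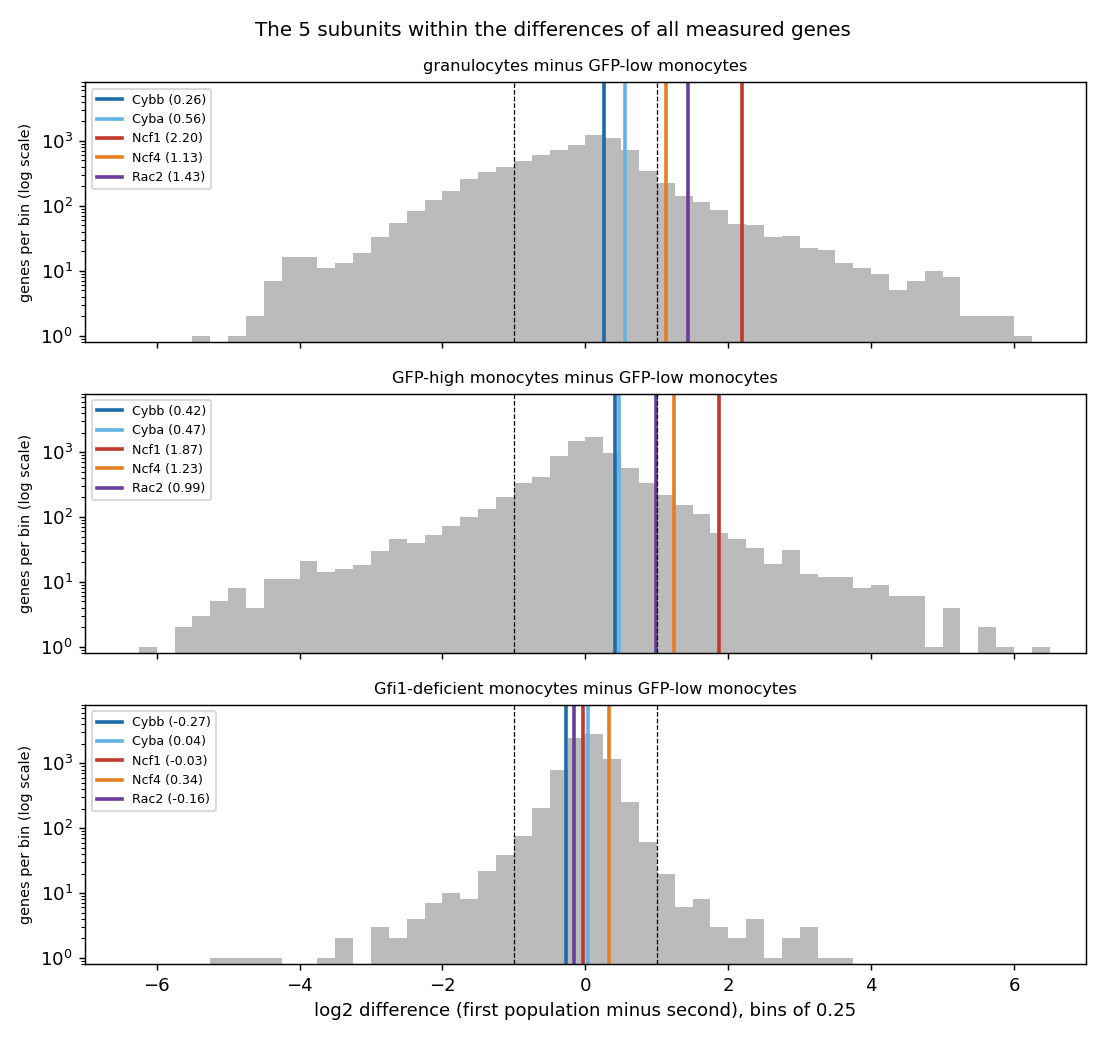
Number of genes (vertical axis, log scale) by log2 difference (horizontal axis, bins of 0.25) in 3 comparisons that share the GFP-low array; coloured lines mark the 5 genes and dashed lines the 2-fold rule. Ncf1, Rac2 and Ncf4 stand beyond the 2-fold line in granulocytes minus GFP-low monocytes (2.20, 1.43 and 1.13), and all 5 stand between the 2-fold lines in Gfi1-deficient minus GFP-low monocytes.

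Some markers of granulocytic maturation moved with these differences and others did not. Secondary granule genes, 9 of 10 of them named and all 9 above the floor on each array, had a mean log2 level of 9.29 in Gfi1-deficient monocytes, 13.67 in granulocytes, 13.16 in GFP-high monocytes and 11.35 in GFP-low monocytes. Mature neutrophil genes, 8 of 10 of them named and all 8 above the floor, had a mean of 8.83 in Gfi1-deficient monocytes, 12.94 in granulocytes, 10.20 in GFP-high monocytes and 9.36 in GFP-low monocytes. In GFP-high against GFP-low monocytes 3 of 8 were at least 2-fold higher and 2 lower, where 9.03% and 9.61% of all genes were. The lower ones were Il1b, at 6.80 against 7.92, and Clec4d, at 6.41 against 7.88. The lactoferrin gene Ltf read 7.36 in Gfi1-deficient monocytes, against 12.18 in GFP-low monocytes, arrays on which Ncf1 had 10.38 and 10.41. In Gfi1-deficient against GFP-low monocytes 5 of 9 secondary granule genes were at least 2-fold lower and 0 higher. The subunits had 0 of 5 apart, near the 1.91% of all measured genes that were. Primary granule genes, which are made at an earlier stage, ran differently from the subunits. All 6 named lay above the floor on each array, with a mean of 11.08 in Gfi1-deficient monocytes, 8.32 in granulocytes, 12.36 in GFP-high monocytes and 8.84 in GFP-low monocytes. In Gfi1-deficient against GFP-low monocytes 5 of 6 were at least 2-fold higher and 0 lower, where 1.91% of all genes were apart. The part of these cells or stages in the oxidase values was not tested.

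Markers of other cell types differed between the arrays as well. Eosinophil and basophil genes, 9 of 10 named, averaged 6.46 in Gfi1-deficient monocytes, 5.95 in granulocytes, 7.28 in GFP-high monocytes and 5.92 in GFP-low monocytes, with between 5 and 7 of them above the floor on an array. In GFP-high against GFP-low monocytes 3 of 7 measured were at least 2-fold higher and 0 lower, where 9.03% and 9.61% of all genes were. Prg2, an eosinophil granule gene, read 10.54 in Gfi1-deficient monocytes, 7.29 in granulocytes, 12.16 in GFP-high monocytes and 7.53 in GFP-low monocytes. Dendritic cell genes, 8 of 9 named, averaged 7.15 in Gfi1-deficient monocytes, 7.69 in granulocytes, 6.09 in GFP-high monocytes and 8.62 in GFP-low monocytes. In GFP-high against GFP-low monocytes 5 of 7 measured were at least 2-fold lower and 0 higher (median -3.19), where 9.61% of all genes were lower. In granulocytes against GFP-low monocytes 5 of 7 were also lower (median -1.58), where 18.2% of all genes were. In Gfi1-deficient against GFP-low monocytes 5 of 7 were again lower (median -1.92), where 1.91% of all genes were apart. H2-Aa, a class II antigen presentation gene, read 9.22 in Gfi1-deficient monocytes, 9.61 in granulocytes, 6.90 in GFP-high monocytes and 11.20 in GFP-low monocytes. B cell genes, 7 of 8 named, averaged from 4.59 in Gfi1-deficient monocytes to 6.04 in granulocytes, with 2 and 5 of them above the floor. Macrophage genes, all 10 named, averaged 6.62 in Gfi1-deficient monocytes, 7.01 in granulocytes, 7.71 in GFP-high monocytes and 6.99 in GFP-low monocytes. They did not move together. In GFP-high against GFP-low monocytes 5 of 9 measured were at least 2-fold higher and 2 lower, where 9.03% and 9.61% of all genes were. The adhesion gene Vcam1 read 10.66 in GFP-high monocytes and 6.07 in GFP-low monocytes. Cd68 read 7.64 in GFP-high and 11.49 in GFP-low monocytes, and Adgre1 7.55 and 9.98. T and NK cell genes averaged between 4.56 in Gfi1-deficient monocytes and 5.75 in granulocytes. Erythroid genes ran from 5.88 to 7.12 and megakaryocyte genes from 5.31 to 5.75 on those arrays. Granulocytes against GFP-low monocytes had 3 of 5 measured B cell genes at least 2-fold higher. The same held for 1 of 4 T and NK cell genes and 1 of 5 erythroid genes. None was lower by as much, against shares of 10.0% higher and 18.2% lower among all genes. The T cell gene Cd3d read 8.48 in granulocytes and 5.13 in GFP-low monocytes. Against GFP-high monocytes, granulocytes had 4 of 5 erythroid genes at least 2-fold higher, where 25.3% of all genes were apart. The part of any of these cell types in the oxidase values was not tested either.

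By profile over the 4 arrays, each centred on its own mean, the nearest of 7214 other genes to Cybb was Igsf6, an immunoglobulin superfamily receptor gene of myeloid cells, at a Euclidean distance of 0.08 log2 units, followed by Hnrnph3 at 0.09 and Gstt1 at 0.10. Nearest to Cyba were Eya3 at 0.02, Rhbdd1 at 0.03 and Trim33 at 0.05. Nearest to Ncf1 were Sytl1, which encodes a synaptotagmin-like protein of secretory vesicles, at 0.13, Mettl9 at 0.21 and Dnmbp at 0.24. Sytl1 read 5.37 in Gfi1-deficient monocytes, 7.69 in granulocytes, 7.40 in GFP-high monocytes and 5.56 in GFP-low monocytes. Nearest to Ncf4 were Neu1, a lysosomal sialidase gene, at 0.06, Mfn2 at 0.11 and Ss18l2 at 0.12, and nearest to Rac2 were Atp11b at 0.05, Fam8a1 and Aldh2, both at 0.08. With 4 points a profile, many genes come close to any one. No subunit was among the 3 nearest genes of another. The closest pair by distance, Cybb and Cyba, lay 0.28 apart. Ncf1 lay 0.77 from Rac2, 1.11 from Ncf4, 1.56 from Cyba and 1.62 from Cybb. Among the 7214 genes Cyba held rank 226 from Cybb, and Cybb rank 561 from Cyba. Rac2 held rank 147 from Ncf1, and Ncf1 rank 606 from Rac2.

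Of 16 further genes of the oxidase family and its accessory proteins, 10 were named on the array and 7 lay above the floor on at least 1 array. Hvcn1, which encodes the proton channel that balances the charge moved by the oxidase, read 6.68 in Gfi1-deficient monocytes, 9.61 in granulocytes, 10.81 in GFP-high monocytes and 7.24 in GFP-low monocytes. It was thus high on the same arrays as Ncf1, but with GFP-high monocytes above granulocytes. Hvcn1 was 11.8-fold higher in GFP-high and 5.15-fold higher in granulocytes than in GFP-low monocytes, and 2.29-fold lower in granulocytes than in GFP-high monocytes. In Gfi1-deficient monocytes it was 17.5-fold lower than in GFP-high monocytes and 7.63-fold lower than in granulocytes.

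Nrros, which in mice encodes a protein reported to limit reactive oxygen by lowering the amount of gp91phox, ran the other way. Nrros read 11.30 in Gfi1-deficient monocytes, 10.09 in granulocytes, 10.14 in GFP-high monocytes and 11.47 in GFP-low monocytes, and was 2.61-fold lower in granulocytes and 2.52-fold lower in GFP-high monocytes than in GFP-low monocytes. Rac1, the widely expressed relative of Rac2, read 12.41 in Gfi1-deficient monocytes, 12.07 in granulocytes, 11.99 in GFP-high monocytes and 12.47 in GFP-low monocytes, and no pair of arrays was 2-fold apart. Cybc1, which encodes a chaperone of the flavocytochrome, read 9.54 in Gfi1-deficient monocytes, 9.17 in granulocytes, 9.06 in GFP-high monocytes and 9.58 in GFP-low monocytes. The values of Rac1, Cybc1 and Nrros were lower on both the granulocyte and the GFP-high array than on the other arrays, where those of Ncf1, Ncf4 and Rac2 were higher. For Rac1 and Cybc1, granulocytes and Gfi1-deficient monocytes lay closer than the SD between probe sets of 0.38. Another bright probe set of Rac1 hardly set granulocytes apart. It read 11.90 in Gfi1-deficient monocytes, 11.85 in granulocytes, 11.64 in GFP-high monocytes and 11.86 in GFP-low monocytes.

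Rap1a, a small GTPase found with the flavocytochrome, ran from 11.17 in granulocytes to 11.67 in GFP-low monocytes. Duoxa1, a maturation factor of the related dual oxidases, ran from 6.08 in Gfi1-deficient monocytes to 6.59 in granulocytes. Noxo1, an organiser of a non-phagocytic oxidase, passed the floor in GFP-high monocytes, at 5.34, and on no other array. Rac3, Nox4 and Duoxa2 lay under the floor on all 4 arrays. In Gfi1-deficient against GFP-low monocytes 0 of the 6 genes measured were 2-fold apart, where 1.91% of all genes were.

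**Figure D4:**
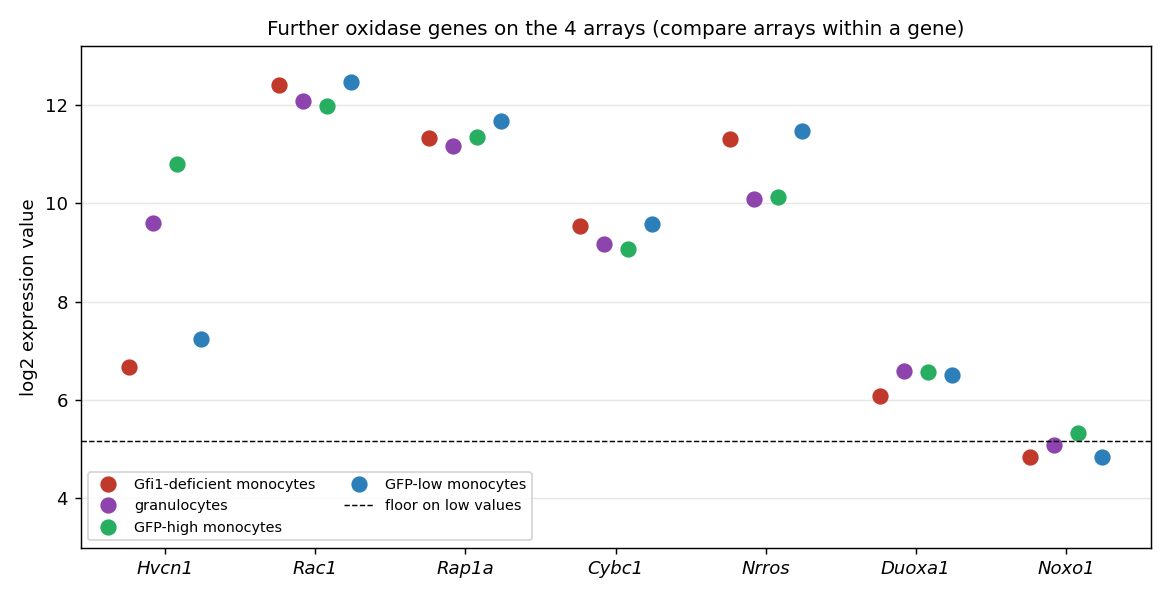
Log2 expression value (vertical axis) of 7 further genes of the oxidase (horizontal axis) on the 4 arrays; each point is 1 array and the dashed line is the floor of 5.18. Hvcn1 is high in granulocytes (9.61) and GFP-high monocytes (10.81), Nrros is low on those arrays (10.09 and 10.14), and levels are to be compared within a gene only.

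Genes that act on Rac were set beside Rac2. Of 14 exchange factors, inhibitors and GTPase-activating proteins, 10 were measured. None was 2-fold apart between GFP-high and GFP-low monocytes, where 9.03% of all genes were higher and 9.61% lower. Between Gfi1-deficient and GFP-low monocytes none was apart either, where 1.91% of all genes were. These counts use the probe set with the highest mean. The other probe set of Dock5 read 8.74 in GFP-high and 6.74 in GFP-low monocytes, which is past 2-fold. In granulocytes against GFP-low monocytes 1 of 10, the exchange factor gene Dock5, was 3.22-fold higher and 1, the exchange factor gene Tiam1, 2.58-fold lower (median 0.46), against shares of 10.0% higher and 18.2% lower among all genes. In granulocytes against GFP-high monocytes 2 of 10 were apart, where 25.3% of all genes were: Tiam1 was 2.26-fold lower, and Vav3, an exchange factor used downstream of integrins and Fc receptors, was 2.02-fold higher. Of 16 kinases and lipid enzymes that prime or activate the oxidase, 11 were measured. In granulocytes against GFP-low monocytes 2 of 11 were at least 2-fold higher, where 10.0% of all genes were, the protein kinase C gene Prkcb by 2.74-fold and the Rac effector kinase gene Pak2 by 2.17-fold. In GFP-high against GFP-low monocytes 2 of 11 were at least 2-fold lower, where 9.61% of all genes were, the phosphoinositide 3-kinase gene Pik3cd by 2.10-fold and the protein kinase C gene Prkcd by 2.06-fold. In granulocytes against GFP-high monocytes Pik3cg, the kinase subunit gene used by chemoattractant receptors, was 2.22-fold higher. Other probe sets of Dock5, Vav3, Prkcb, Pak2, Pik3cd and Pik3cg that passed the floor had the same sign.

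Receptors that trigger the burst were measured too. Of 12 genes, 10 were measured. In GFP-high against GFP-low monocytes 3 of 10 were at least 2-fold higher and 2 lower (median 0.42), where 9.03% and 9.61% of all genes were, with the complement receptor gene C5ar1 3.29-fold higher, the high-affinity Fc receptor gene Fcgr1 17.6-fold lower and Clec7a, which encodes the receptor for fungal beta-glucan, 13.4-fold lower. In granulocytes against GFP-low monocytes 4 of 10 were at least 2-fold higher and 1 lower (median 0.95), where 10.0% and 18.2% of all genes were. C5ar1 was 13.4-fold and the formyl peptide receptor gene Fpr2 6.08-fold higher, and Fcgr1 was 10.3-fold lower. Clec7a read 12.04 in granulocytes and 8.45 in GFP-high monocytes, so these arrays, close in the oxidase subunits, differed 12.1-fold in it. In Gfi1-deficient against GFP-low monocytes 0 of 10 were 2-fold apart (median 0.08), where 1.91% of all genes were.

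The oxidase draws on NADPH from the pentose phosphate pathway and a few dehydrogenases, and 8 of 10 such genes were measured. In granulocytes against GFP-low monocytes 2 of 8 were at least 2-fold higher, Pgd, the phosphogluconate dehydrogenase gene, by 2.57-fold and Taldo1, the transaldolase gene, by 2.10-fold, and 1, the isocitrate dehydrogenase gene Idh1, was 2.55-fold lower, against shares of 10.0% higher and 18.2% lower among all genes. In GFP-high against GFP-low monocytes Rpia, the ribose phosphate isomerase gene, was 2.85-fold higher and Idh1 2.69-fold lower. Shares among all genes were 9.03% higher and 9.61% lower. The other 6 lay under the rule by the probe set with the highest mean. The other probe set of Tkt passed 2-fold here and in granulocytes against GFP-low monocytes. It read 12.61 in GFP-high monocytes, 12.69 in granulocytes and 11.50 in GFP-low monocytes. In Gfi1-deficient against GFP-low monocytes 0 of 8 were 2-fold apart, where 1.91% of all genes were.

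Genes that use or remove reactive oxygen were followed next. Of 19 genes, 16 were measured in granulocytes against GFP-low monocytes, with 5 at least 2-fold higher and 5 lower (median 0.18), against shares of 10.0% higher and 18.2% lower among all genes. Glrx, the glutaredoxin gene, was 6.89-fold and Gclm, a subunit of the enzyme that starts glutathione synthesis, 3.63-fold higher. Sod1, which encodes cytosolic superoxide dismutase, was 4.48-fold lower in granulocytes, reading 10.00 there and 12.17 in GFP-low monocytes. In GFP-high against GFP-low monocytes 14 were measured, 4 at least 2-fold higher and 3 lower, where 9.03% and 9.61% of all genes were. Mpo, whose peroxidase turns the hydrogen peroxide that follows from superoxide into hypochlorous acid, was 48.0-fold and Glrx 4.62-fold higher, and Sod1 3.51-fold lower. In Gfi1-deficient against GFP-low monocytes Mpo, 10.1-fold higher, was the 1 gene of 14 past 2-fold, where 1.91% of all genes were, on a pair of arrays where Ncf1 differed by 1.02-fold.

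A list of 13 transcription factors, 12 of them named on the array, was also set beside the subunits. It joins factors reported to act on oxidase genes with Gfi1, the gene altered in this series. Whether Gfi1 acts on the subunit genes was not tested. Spi1, which encodes PU.1, read 10.85 in Gfi1-deficient monocytes, 11.62 in granulocytes, 10.99 in GFP-high monocytes and 10.85 in GFP-low monocytes, a spread under 2-fold. Irf8, which in humans and mice acts with PU.1 on the Cybb gene, read 10.80 in Gfi1-deficient monocytes, 7.23 in granulocytes, 7.09 in GFP-high monocytes and 10.80 in GFP-low monocytes. It was 13.1-fold lower in GFP-high than in GFP-low monocytes, where Cybb was 1.34-fold higher. Satb1, a chromatin organiser, was 8.17-fold higher in granulocytes and 4.42-fold higher in GFP-high monocytes than in GFP-low monocytes, and its other probe sets that passed the floor had the same sign. In granulocytes against GFP-high monocytes Irf1, which like Irf8 binds interferon response elements, was 2.21-fold and Irf2 2.52-fold higher. Gfi1 was at least 35.1-fold higher in GFP-high than in GFP-low monocytes and 8.00-fold lower in granulocytes than in GFP-high monocytes, while Ncf1 was 3.65-fold higher and 1.26-fold higher in those comparisons.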

How the data were processed

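RNA of 4 sorted populations was hybridised to 1 Affymetrix array each, from 6 µg of total RNA extracted with TRIzol, per the labels' protocols. Each probe set has 1 deposited value per array, taken as log2 from the range of 2.70 to 14.50, since neither the base nor the normalization is given in the sources used here. Array medians ran from 5.91 to 6.01, so no further scaling was applied. Of 22690 probe sets, 20393 have 1 gene, 691 several and 1606 none in the platform annotation used, which can be old; none with several named a gene. A gene is its probe set with the highest mean. Values under the floor were raised to it, which makes a difference with 1 such array a bound, and genes under it on both arrays were not measured. Arrays have no read depth, their number limits the precision, and a normalization to a common distribution hides shifts shared by most genes.

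Python 3.11.15 with numpy 2.4.6, pandas 2.3.3 and matplotlib 3.10.9 was used, and counting and the SD between probe sets were tested on simulated data. Per gene list and comparison, at most the 3 genes with the largest differences past 2-fold were named, with all measured oxidase genes and the 3 nearest profiles of each subunit. A few others were chosen after their values were seen, among them Spi1, Csf1r, Vcam1, Ltf, Prg2, H2-Aa and Sytl1. The subunits, lists and rules were chosen with earlier results of these data known. Alternatives were the floor, the scaling, the choice of probe set and the rule of size. Upstream sequences are from RefSeq (GRCm38.p6), whose table here matched Cybb, Cyba and Ncf1.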

Additional observations from a re-analysis of the deposited data

How the results depend on the processing

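No paired analysis was possible because each population has 1 array and the labels give no replicate numbers. Over floors at the 20th and 60th percentile or none, 3 scalings and 2 other choices of probe set, the count of subunits 2-fold apart stayed at its value in each comparison except GFP-high minus GFP-low monocytes, where centring on array medians gave 3 in place of 2. The floors could not move the subunit values, because all 6 probe sets lay far above them. The choice of probe set could move only Ncf1, which has 2 probe sets. Many of the 240 differences of single subunits recomputed in this way were therefore fixed in advance. Of the 240, 239 moved by less than the SD between probe sets, a count that is no measure of robustness. The exception was Ncf1 in Gfi1-deficient minus GFP-low monocytes, at -0.24 with its other probe set. The rule of size changed counts by construction. At 4-fold 0 subunits were apart for Gfi1-deficient minus GFP-high and for GFP-high minus GFP-low monocytes, and 1, Ncf1, for Gfi1-deficient monocytes minus granulocytes and for granulocytes minus GFP-low monocytes. At 1.5-fold 4 were apart for Gfi1-deficient minus GFP-high monocytes and 3 for Gfi1-deficient monocytes minus granulocytes. Rac2, at 1.98-fold, then also counted for GFP-high minus GFP-low monocytes. The subunits read from 9.26 to 13.04, under array maxima of 14.16 to 14.50, and whether signals this high were compressed was not tested.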
